A study of Mus musculus with 2 samples.

Results

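Nuclei of the unipolar brush cell lineage were taken from single-nucleus RNA-seq of the mouse cerebellum at postnatal day 1 by their own transcripts. A nucleus had to hold at least 2 unique molecular identifiers (UMIs, each a counted transcript) of Eomes and Lmx1a together, at most 1 of Gad1 and Gad2 together, and at most 3 of Slc1a3 and Ptprz1 together. Among nuclei with at least 1000 detected genes and at most 5% mitochondrial UMIs, 178 of 3816 in the control library and 232 of 6217 in the library labelled cKO were members, 410 of 10033 in all. The deposited matrices held 4857 and 6946 barcodes. The study asked what loss of the transcription regulator Tox3 does to the developing cerebellum, with its attention on granule neuron progenitors. The control library came from littermates without Cre, labelled Tox3f/f for genotype and with a library name that also lists Tox3f/+, and the other library came from Nestin-cre;Tox3f/f mice. Tox3f is an allele that Cre recombinase can inactivate, and Nestin-cre is active in neural precursors, so that neurons derived from them inherit the recombined allele. Each library pooled 12 cerebella, so there was 1 library per group.

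Unipolar brush cells are excitatory interneurons of the granular layer of the cerebellar cortex, most numerous in the vestibular lobules. They arise from the rhombic lip, as do granule neurons and the glutamatergic neurons of the cerebellar nuclei, and they carry a single short dendrite that ends in a brush and receives a giant mossy fibre synapse. Eomes (Tbr2) and Lmx1a are transcription factors of this lineage. Calb2 encodes calretinin, a calcium-binding protein that marks a class of the mature cells, and Plcb1 and Plcb4 encode phospholipase C beta enzymes of receptor signalling.

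With 1 library per group no test between the groups was possible, and nothing below carries a p-value. Each interval is a 95% interval that covers counting error only, neither the spread between animals nor that between libraries. Members held 953720 UMIs in the control library and 1210306 in the library labelled cKO, with medians of 4538 and 4433.5 UMIs per nucleus. The libraries shared 9 barcodes, and none of these was a member in either. Of the members whose sex could be read from Xist and Y-linked UMIs, 42.9% in the control library and 25.5% in the library labelled cKO were male, close to the 43.2% and 27.7% of all passing nuclei, so sex and group were partly confounded. Nuclei of the granule lineage made up 30.6% of passing nuclei in the control library and 13.5% in the library labelled cKO. Tox3 (chromosome 8, 90247040 to 90348343, minus strand) was not lower where it was targeted: all passing nuclei held 107.7 counts per 1000000 UMIs (CPM) in the control library and 121.5 CPM in the other. By RT-qPCR on cerebella of the same age, the study reported almost complete loss of Tox3 in such mutants. The counts used here do not separate recombined from intact transcripts, and the group is called the library labelled cKO for this reason.

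Within the chosen nuclei Tox3 stood at 36 UMIs in 22 control nuclei and 71 UMIs in 42 nuclei of the library labelled cKO. This was 37.7 and 58.7 CPM, 1.55-fold higher in the library labelled cKO (1.03 to 2.39). The ratio was 1.29 (0.773 to 2.17) among nuclei with Eomes, and in nuclei with Y-linked UMIs alone it turned to 0.810 (0.208 to 2.81). Of its relatives, Tox had a ratio of 1.48 (1.04 to 2.13) but 0.832 (0.415 to 1.64) with Eomes, Tox4 had 0.835 (0.590 to 1.18), and Tox2 had 3 and 5 UMIs.

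The members differed in how they met the rule. Eomes (chromosome 9, 118478212 to 118486132, plus strand) and Lmx1a (chromosome 1, 167689237 to 167848741, plus strand) were both detected in 99 control nuclei and in 103 of the library labelled cKO. Eomes was detected without Lmx1a in 32 and 36 nuclei, and Lmx1a without Eomes in 47 and 93. The median marker sum was 4 UMIs in each library, and the highest were 21 and 23. Just inside the threshold, with a sum of exactly 2, were 49 and 58 nuclei. Just outside it, with a sum of exactly 1 and the ceilings met, were 190 and 178 nuclei, more than the members themselves in the control library. The ceilings on Gad1 and Gad2 and on Slc1a3 and Ptprz1 removed 14 and 17 control nuclei and 18 and 43 of the library labelled cKO.

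Members were 4.66% (4.02 to 5.38) of passing nuclei in the control library and 3.73% (3.27 to 4.23) in the one labelled cKO, a ratio of 0.80 (0.655 to 0.978), whose interval included 1 under 6 of 12 alternative settings. The nuclei with an Eomes UMI were 3.43% (2.88 to 4.06) and 2.24% (1.88 to 2.63), a ratio of 0.651 (0.509 to 0.833). The nuclei with Lmx1a and no Eomes were 1.23% (0.906 to 1.63) and 1.5% (1.21 to 1.83), a ratio of 1.21 (0.846 to 1.76). By this split the lower share lay in the nuclei with a detected Eomes UMI, whereas the interval for those without Eomes included 1. The split rests on detection of Eomes itself. Eomes was also lower in other passing nuclei, at 10.8 and 6.87 CPM, a ratio of 0.636 (0.525 to 0.770). Whether lower detection of Eomes shaped the split was not tested. Because granule nuclei filled unequal parts of the libraries, the shares were also taken of the nuclei outside the granule rule. There the nuclei with Eomes were 4.94% and 2.58%, a ratio of 0.523 (0.409 to 0.669), and those without Eomes 1.77% and 1.73%, a ratio of 0.975 (0.679 to 1.42). A share cannot separate fewer of these cells from more of the others.

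**Figure D1:**
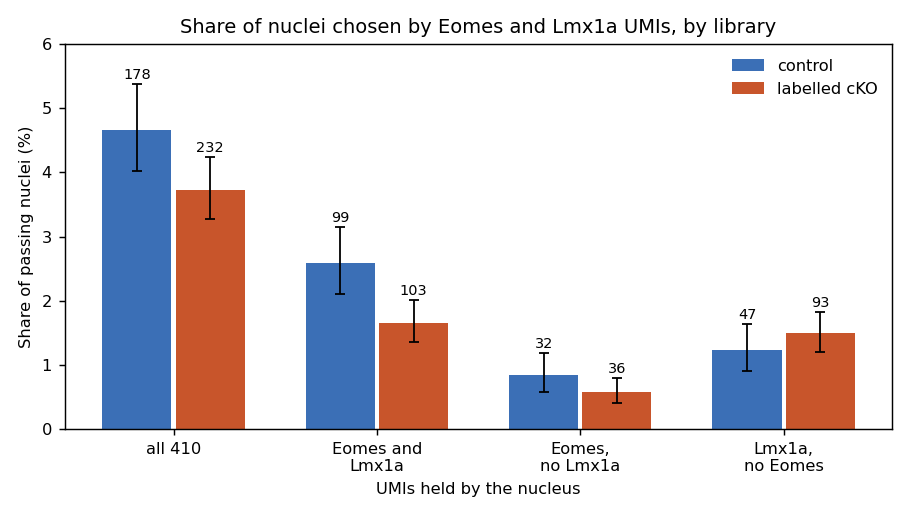
Share of passing nuclei (%) that met the rule, in all and by which of the marker genes had a UMI; bars are the control library (blue) and the library labelled cKO (orange), error bars are exact binomial 95% intervals for counting error, and the numbers above are nuclei. The pair with Eomes and Lmx1a stood at 2.59% and 1.66%, and the pair with Lmx1a and no Eomes at 1.23% and 1.5%.

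Summed over all passing nuclei, members or not, Eomes was 22.4 CPM (20.5 to 24.5) in the control library and 14.7 CPM (13.5 to 16.1) in the library labelled cKO, and Lmx1a was 33.0 and 34.7 CPM. The members carried 53.9% and 55.1% of the Eomes UMIs and 79.4% and 71.3% of the Lmx1a UMIs. Samd3 was 13.2 and 6.44 CPM over all passing nuclei, Gmnc 8.65 and 4.21, Otx2 34.3 and 19.7, and Grp 8.28 and 7.34. Of these genes, Samd3, Gmnc and Grp had 44.3% to 70.5% of their UMIs in members, but Otx2 had 13.4% and 13.3%.

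Free RNA in droplets can place a UMI in a nucleus that does not express the gene, so the marker sum was counted in other types. Among GABAergic nuclei, chosen by at least 3 UMIs of Gad1 and Gad2, 1.45% in the control library and 0.855% in the library labelled cKO held a marker sum of 2 or more, at median depths of 6794.5 and 6155 UMIs. After thinning to 2000 UMIs per nucleus these shares were 0.323% and 0.143%, against 2.80% and 2.35% of all passing nuclei. Among microglia, chosen by at least 3 UMIs of Csf1r, C1qa and C1qb, none of 43 and none of 130 nuclei held such a sum at median depths of 3207 and 2911.5 UMIs, where a limit of 3 nuclei allows up to 6.98% and 2.31%. This rule replaced a first microglia rule after the data were seen. Under the first rule 33 of 586 (5.63%) and 47 of 999 nuclei (4.70%) held the sum, and 1.89% and 1.24% after thinning. Before thinning, 5.35% and 4.58% of all passing nuclei held it. All passing nuclei include the members, which were chosen by this sum. Their thinned shares above those in GABAergic nuclei thus describe the rule and test nothing.

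Markers of unipolar brush cells outside the rule bore on the label. Grp, a secreted peptide, had a UMI in 30.9% and 21.6% of members but in 1.35% and 1.34% of other passing nuclei. Calb2 had a UMI in 23.6% and 30.6% of members against 2.91% and 4.31% of other nuclei, and Otx2, a rhombic lip transcription factor, in 35.4% and 26.7% against 12.1% and 6.78%. After thinning to 2000 UMIs, Calb2 had a UMI in 13.1% and 16.2% of members against 1.18% and 1.98% of other nuclei. Grp and Calb2 thus stood with the label. Plcb1 and Plcb4 did not follow it. Plcb1 stood at 570.4 and 576.7 CPM in members and 1817 and 2278 CPM in other nuclei, and Plcb4 at 237.0 and 268.5 CPM against 431.1 and 584.7 CPM. Sln had 0 UMIs in control members and 1 UMI in the library labelled cKO, too few to read.

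The genes that led in the members were ranked by their CPM over that of all other passing nuclei, within each library. These genes describe the selection and test nothing. The rule genes, Eomes and Lmx1a among them, were left out of the ranking. First came Samd3, the non-coding Gm30094, Grp, the Wnt agonist Rspo2, Gmnc, a regulator of multiciliated cell genes, the kinase Dclk3, and Calb2. The 20 leading genes were 6.11 to 84.7 times higher in members than in other nuclei of the control library and 4.93 to 51.1 times in the library labelled cKO. Samd3 had 210.8 CPM in control members against 4.07 in other nuclei, and 116.5 CPM against 2.28 in the library labelled cKO. All 20 were higher in members than in granule, glutamatergic cerebellar nuclei and GABAergic nuclei of the control library, and 18 were in the library labelled cKO, where Chst8 and Trpc5 were higher in glutamatergic cerebellar nuclei, a set of only 35 and 47 nuclei. Trpc5 at rank 20 encodes a cation channel, and Adcy2 at rank 11 encodes an adenylyl cyclase.

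**Figure D2:**
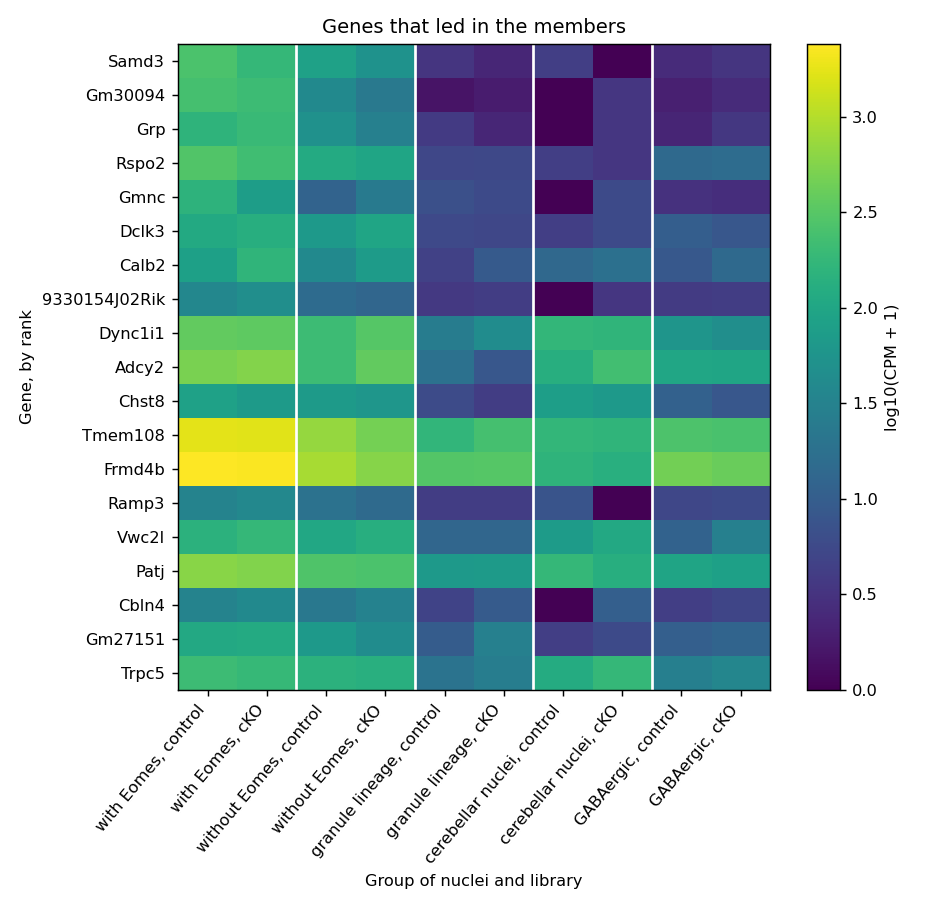
Level of the leading genes, 1 of the 20 left out, as log10(CPM + 1) by colour, in members with and without an Eomes UMI, granule lineage, glutamatergic cerebellar nuclei and GABAergic nuclei, with the control library left of the library labelled cKO in each pair. Colour is brightest in the columns of members with Eomes, and the genes drawn were all higher there than in members without Eomes in both libraries.

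Nuclei with and without Eomes differed within each library, so the members were not uniform. All 20 leading genes were higher in the nuclei with Eomes in both libraries. Gm30094 had 238.4 CPM with Eomes and 39.5 CPM without in the control library, and 210.4 and 22.3 CPM in the library labelled cKO. Frmd4b had 2411 and 865.5 CPM in the control library and 2308 and 585.1 CPM in the library labelled cKO. Nuclei with Eomes were 131 of 178 control members and 139 of 232 members of the library labelled cKO. The ranking over all members leaned to genes high in them, so this pattern describes the selection and tests nothing.

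The nuclei without Eomes had their own high genes. Zfhx3, a homeodomain and zinc finger factor, had 337.6 CPM without Eomes and 19.3 CPM with Eomes in the control library, and 540.5 and 38.2 CPM in the library labelled cKO. Snhg11, a non-coding host transcript abundant in neurons, had 1731 and 159.9 CPM and then 3190 and 481.3 CPM. Pbx3, Dab1, which relays the reelin signal, and Glra1, a glycine receptor subunit, were also among the 12 genes highest without Eomes. Lmx1b, the close relative of Lmx1a, had UMIs in 2 of 47 and 21 of 93 nuclei without Eomes, and in 1 of 131 and 1 of 139 with Eomes. Slc17a6, the vesicular glutamate transporter VGLUT2, had a UMI in 51.1% and 62.4% of nuclei without Eomes and in 27.5% and 28.8% with Eomes. These nuclei were also deeper, with medians of 4815 and 5726 UMIs against 4322 and 3965 with Eomes, and their share of members was 26.4% (20.1 to 33.5) in the control library and 40.1% (33.7 to 46.7) in the library labelled cKO. After thinning to 2000 UMIs, Grp had a UMI in 8.51% and 5.43% of nuclei without Eomes against 24.0% and 19.0% with Eomes. Whether the nuclei chosen by Lmx1a alone belong to the unipolar brush cell lineage cannot be told from these counts. A missing UMI is not proof of a missing transcript, and no type name is given to this set. Comparisons of the libraries over all members carry this difference in mixture, and for most genes the value in nuclei with Eomes alone is given beside them.

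Markers of other cell types were summed over each list in members and in other passing nuclei. Vascular and fibroblast markers stood at 9.44 CPM in control members and 6.61 CPM in members of the library labelled cKO, with Rgs5 at 0, against 16.4 and 15.6 CPM in other nuclei. Oligodendrocyte markers stood at 13.6 and 16.5 CPM against 66.8 and 79.8 CPM, and astroglial markers, of which the rule limited Slc1a3 and Ptprz1, at 371.2 and 411.5 CPM against 1416 and 1979 CPM. Microglial markers were less far apart, at 186.6 and 192.5 CPM against 280.4 and 343.2 CPM. Roof plate and choroid plexus markers were higher in members, at 74.4 and 85.9 CPM against 19.9 and 25.9 CPM. Of these, Prlr, the prolactin receptor, had 44 and 72 UMIs in members and Folr1, a folate receptor, 25 and 28, whereas Ttr, the transthyretin of choroid plexus epithelium, had 2 and 3, Clic6 had 0 and 1, and Kl, Kcne2 and Aqp1 were at 0. Of the 14 GABAergic markers 3 had enough UMIs to compare, and the summed level was 306.2 and 444.5 CPM, against 1483 and 2078 CPM in other nuclei. Among them Tfap2b had 14 and 99 UMIs, Ebf2 106 and 254, and Foxp2, low in the library labelled cKO, 110 and 74. Their part in the results was not tested.

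The markers of the lineage compared as follows between the libraries. Calb2 had 67 UMIs in 42 control members and 143 UMIs in 71 members of the library labelled cKO, 70.3 and 118.2 CPM, 1.68-fold higher (1.25 to 2.28), and 1.96-fold higher (1.40 to 2.77) among nuclei with Eomes. Calb2 was also higher among the other passing nuclei, at 1.62-fold.

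Otx2 had 99 and 87 UMIs, 103.8 and 71.9 CPM, a ratio of 0.692 (0.513 to 0.933) over all members but 0.943 (0.664 to 1.34) with Eomes. Grp, Plcb1 and Plcb4 had ratios of 0.913 (0.710 to 1.18), 1.01 (0.903 to 1.13) and 1.13 (0.953 to 1.35). Grp turned to 1.24 (0.947 to 1.62) with Eomes, and Plcb4 was at 1.10 (0.867 to 1.39). For Plcb1 the value over all members joined 1.34 (1.15 to 1.55) in nuclei with Eomes and 0.645 in those without. None of these markers passed 2-fold. Of all genes with at least 50 UMIs in members, 2.19% were higher and 0.611% lower in the library labelled cKO by at least 2-fold, so that a call at this size was rare in either direction.

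Among nuclei with Eomes, 33 in the control library and 45 in the library labelled cKO also held Calb2. Grp had 56.1 CPM in these and 198.3 CPM in nuclei with Eomes and no Calb2 of the control library, and 120.2 and 238.2 CPM in the library labelled cKO, lower where Calb2 was detected in each. Nuclei with Calb2 and Eomes were deeper, with medians of 5572 and 4565 UMIs against 4119.5 and 3636.5 without Calb2.

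Across 6713 genes with at least 50 UMIs over members of both libraries, 147 were higher by at least 2-fold in the library labelled cKO (2.19%) and 41 were lower (0.611%), and the median log2 ratio was -0.02. In nuclei with Eomes 4790 genes had enough UMIs, of which 43 were higher (0.898%) and 26 lower (0.543%). In nuclei without Eomes 3474 genes did, of which 94 were higher (2.71%) and 56 lower (1.61%). Of the 147 higher genes, 13 also passed 2-fold in nuclei with Eomes, 25 were compared there and did not, and 109 had too few UMIs there. Of the 41 lower genes, 11 passed in nuclei with Eomes, 8 did not and 22 had too few UMIs. In other passing nuclei 7 of the 6713 genes were higher (0.104%) and 14 lower (0.209%) by 2-fold, and of these 5 were among the 147 and 2 among the 41. Those nuclei held 20654807 and 32040880 UMIs, far more than the members, and many cell types, so these shares are unlike those in members. Within nuclei with Xist UMIs the counts were 149 higher and 41 lower of 4835, and within nuclei with Y-linked UMIs 48 and 39 of 2456.

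**Figure D3:**
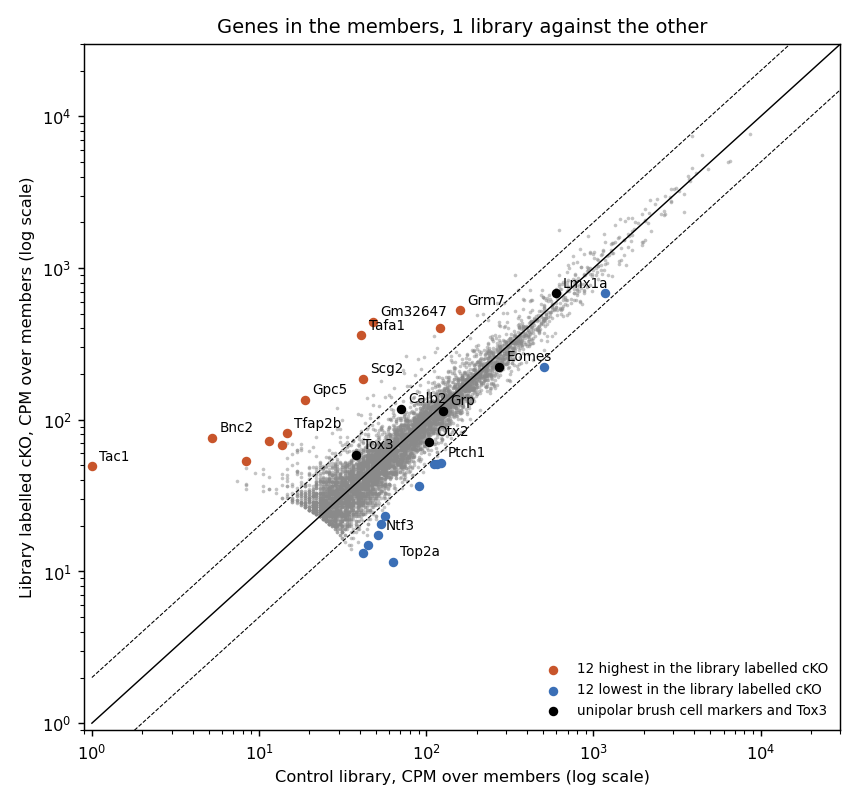
CPM of each of 6713 genes summed over members, control library on the x axis and library labelled cKO on the y axis, both on log scales. Orange points are the 12 genes named as highest and blue points the 12 named as lowest in the library labelled cKO, black points are lineage markers and Tox3, the solid line is equality, dashed lines are 2-fold, and Tac1, at 0 UMIs in the control, is drawn at 1 CPM; Calb2 lay above the line at 70.3 and 118.2 CPM.

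The 12 genes with the firmest higher ratios, ranked by the interval bound nearest to 1, were mostly carried by nuclei without Eomes. Tac1, the substance P precursor (chromosome 6, 7554879 to 7565834, plus strand), had 0 UMIs in control members and 60 in members of the library labelled cKO. Against a limit of 3 counts over all control members the fold was 15.8, and the lower bound of its counting interval, which covers the error of the 60 UMIs too, was 12.4. The 60 UMIs were in 10 nuclei, 38 of them in 1 nucleus and 56 in nuclei without Eomes, so few cells set this value. In other passing nuclei Tac1 had a ratio of 5.37.

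Tafa1, a secreted protein of the nervous system, had 39 UMIs in 19 control nuclei and 438 in 50 nuclei, 8.85-fold higher (6.37 to 12.6). It was 2.51-fold higher (1.34 to 4.95) with Eomes, 8.02-fold without, and 1.20-fold in other nuclei. The non-coding Gm32647 had 46 and 537 UMIs, 9.20-fold higher (6.80 to 12.7), of which 139 UMIs were in 1 nucleus of the library labelled cKO, and 1.84-fold (1.05 to 3.33) with Eomes. Bnc2, a zinc finger protein, had 5 and 92 UMIs in 4 and 12 nuclei, 14.5-fold (5.99 to 45.7), and Gpc5, a cell surface heparan sulphate proteoglycan, had 18 and 164 UMIs, 7.18-fold (4.40 to 12.4). With Eomes these were 3.77-fold (1.18 to 15.7) on 4 and 14 UMIs and 1.94-fold (0.848 to 4.70) on 10 and 18. For Bnc2, leaving out the nuclei that scored highest as doublets moved the ratio to 35.6. The bulk of the excess lay in nuclei without Eomes for each of these genes.

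The remaining 7 of the 12 repeated this pattern to different degrees. Tnr, an extracellular matrix glycoprotein, was 6.30-fold higher (3.36 to 13.1) and Tfap2b, a transcription factor of GABAergic precursors in the cerebellum, 5.57-fold (3.17 to 10.6). Each of the pair had a ratio of 3.95 with Eomes, on 3 and 11 UMIs for Tnr and 6 and 22 for Tfap2b. In other passing nuclei the ratio was 2.04 for Tnr and 1.47 for Tfap2b. Scg2, a secretogranin of dense-core vesicles, had 40 and 225 UMIs in 33 and 68 nuclei, 4.43-fold higher (3.16 to 6.37), and kept 2.87-fold (1.82 to 4.65) with Eomes. Grm7, a presynaptic metabotropic glutamate receptor, had 151 and 637 UMIs, 3.32-fold higher (2.78 to 4.0), but 1.10-fold (0.734 to 1.64) with Eomes. Epha5, an ephrin receptor, and Serpine2, a protease inhibitor, were 3.34-fold and 4.97-fold higher, with 1.60-fold (1.01 to 2.56) and 1.61-fold (0.513 to 5.51) in nuclei with Eomes. Gm20713, 6.40-fold higher in all members, had a ratio of 0.646 with Eomes on 5 and 3 UMIs. Scg2 was seen across both sets of nuclei, and Grm7 was not higher beyond its interval where Eomes was detected. Lmx1b was not among the 12 but had 9 UMIs in 3 control nuclei and 54 in 22 nuclei, a ratio of 4.73 (2.32 to 10.9), and 3.60 in other nuclei.

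**Figure D4:**
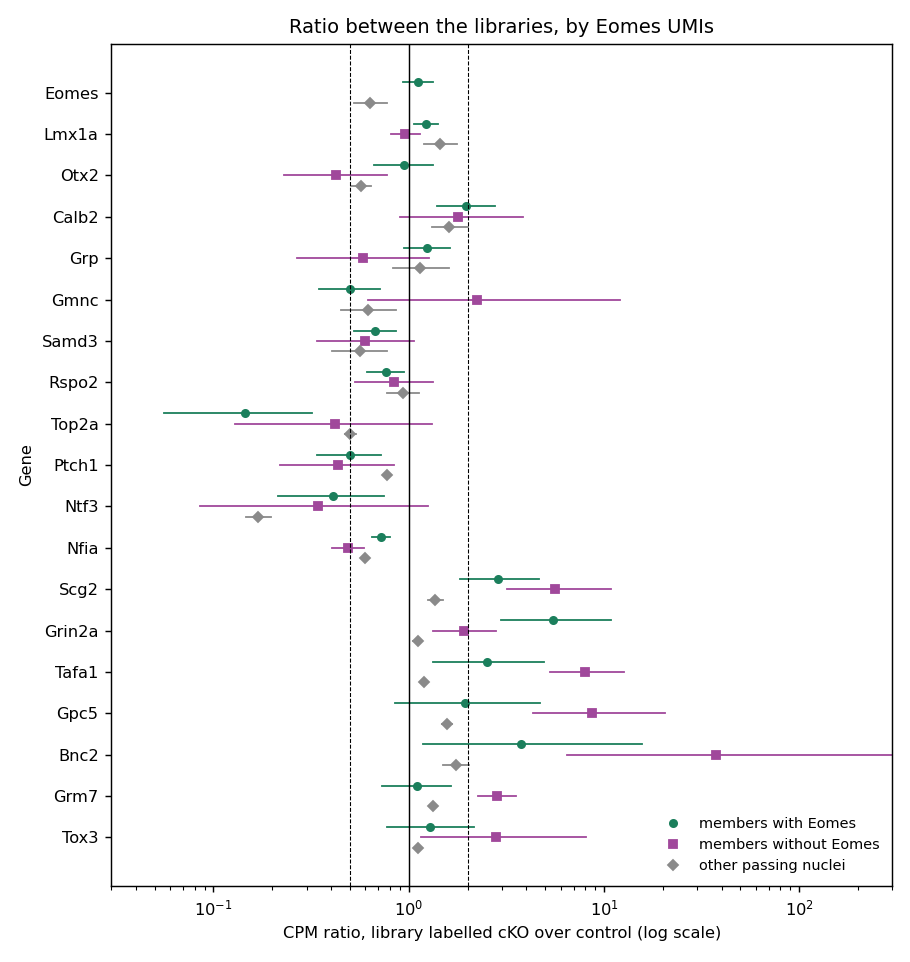
Ratio of CPM in the library labelled cKO over that in the control library, on a log scale, for genes named in the text, with counting intervals: members with Eomes (green circles), members without Eomes (purple squares) and other passing nuclei (grey diamonds); the solid line is 1, dashed lines are 2-fold either way, and the interval of Bnc2 without Eomes runs off the axis. Tafa1, Gpc5, Bnc2 and Grm7 lay farther right without Eomes than with it, while Top2a lay at 0.145 with Eomes.

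The 12 genes with the firmest lower ratios differed in where they lay. Top2a, Gmnc, Ntf3, Gm11266 and Rpl35 had intervals below 1 with Eomes, but their intervals without Eomes included 1. For Man1c1 this was reversed. Nfia, Ptch1, E130114P18Rik, Celsr2, Gm48099 and Ndst4 had intervals below 1 in both sets. For Ndst4 without Eomes, however, 49 of the 68 control UMIs were in 1 nucleus. Top2a, the topoisomerase of dividing cells (chromosome 11, 98992943 to 99024189, minus strand), had 60 UMIs in 27 control nuclei and 14 UMIs in 12 nuclei of the library labelled cKO, 62.9 and 11.6 CPM, 5.44-fold lower (3.00 to 10.5). In nuclei with Eomes it had 52 UMIs in 21 nuclei and 7 UMIs in 5 nuclei. The control nucleus with most Top2a held 14 UMIs. Among other passing nuclei the Top2a ratio was 0.502. Summed over the 30 genes of the G2/M list, members held 356.5 and 173.5 CPM, of which Top2a and Nusap1 alone had enough UMIs to compare, and Nusap1 had a ratio of 1.13 (0.622 to 2.07). Summed over the 26 S phase genes, members held 347.1 and 271.8 CPM, with Pola1, a DNA polymerase subunit, at a ratio of 0.590 (0.404 to 0.855). In other passing nuclei the sums were 709.1 and 414.1 CPM for the G2/M list and 645.9 and 424.7 CPM for S phase.

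Ptch1, the receptor and target of Sonic hedgehog, had 116 UMIs in 74 control nuclei and 63 in 52 nuclei, 2.34-fold lower (1.70 to 3.23), and 2.01-fold lower with Eomes. Ccnd2, a cyclin induced by the same pathway in granule progenitors, had 42 and 23 UMIs, 2.32-fold lower (1.36 to 4.04). Of the 6 compared genes of that pathway these were the pair past 2-fold, and the receptors and regulators Boc, Cdon, Sufu and Ccnd1 had ratios of 0.645 to 1.14. The median log2 ratio of the 6 was -0.35. With Eomes 4 genes of the list were compared, 2 above and 2 below 1, with a median of -0.04. Ptch1 was 0.773 and Ccnd2 0.524 in other nuclei. Ntf3, a neurotrophin, had 49 and 21 UMIs, 2.96-fold lower (1.74 to 5.20), with a ratio of 0.410 with Eomes and 0.170 in other nuclei. For Ntf3 the difference was larger outside the members.

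Gmnc had 106 UMIs in 44 control nuclei and 62 in 39 nuclei, 2.17-fold lower (1.57 to 3.02), and was the 1 leading gene of the 20 past 2-fold. With Eomes it stood at 103 and 48 UMIs, a ratio of 0.502 (0.348 to 0.713). Without Eomes it had 3 and 14 UMIs, a ratio of 2.23 (0.622 to 12.1). Nfia, a transcription factor of the nuclear factor I family, had 1113 and 826 UMIs in 166 and 188 nuclei, 1.71-fold lower (1.56 to 1.87), and E130114P18Rik, a non-coding RNA, had 482 and 271 UMIs, 2.26-fold lower (1.94 to 2.63). For E130114P18Rik the ratio was 0.254 within nuclei with Xist UMIs and 0.852 within those with Y-linked UMIs. Celsr2, an atypical cadherin of planar polarity, and Man1c1, a mannosidase, were 2.59-fold and 2.45-fold lower, and Rpl35, a ribosomal protein, 2.48-fold. Ndst4, a heparan sulphate sulfotransferase, was 2.25-fold lower (1.63 to 3.13), with 49 of its 110 control UMIs in 1 nucleus. With Eomes, Nfia was at 0.723 (0.651 to 0.803), E130114P18Rik at 0.563 (0.477 to 0.663), Celsr2 at 0.524 (0.281 to 0.943), Man1c1 at 0.568 (0.308 to 1.02), Rpl35 at 0.389 (0.238 to 0.616) and Ndst4 at 0.333 (0.164 to 0.633). For Ndst4 over all members, leaving out that nucleus and the highest of the other library brought its ratio to 0.678. The non-coding Gm11266 and Gm48099 completed the 12, at 3.17-fold and 3.03-fold lower on 40 and 16 and on 43 and 18 UMIs. Among other passing nuclei Nfia was 1.67-fold lower, E130114P18Rik 1.96-fold, Man1c1 1.82-fold, Gm48099 2.06-fold, Gmnc 1.61-fold and Rpl35 1.59-fold. Gm11266, Celsr2 and Ndst4 were 1.44-fold, 1.21-fold and 1.19-fold lower there. The lower levels of these genes were thus not confined to members. For Nfia the difference was smaller with Eomes, at 1.38-fold lower, than in other nuclei.

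Among the 20 leading genes 8 had an interval below 1 and 2 above it, and their median log2 ratio was -0.25. Samd3 was 1.81-fold lower (1.45 to 2.26), Gm30094 1.51-fold (1.20 to 1.89), and Rspo2 1.49-fold (1.23 to 1.81), while Calb2 and Adcy2 were higher. In nuclei with Eomes 4 intervals lay below 1 and 1 above, with a median log2 ratio of -0.04. Those below 1 there included Samd3 at 0.675 (0.527 to 0.860), Rspo2 at 0.761 (0.608 to 0.95) and Gmnc. Frmd4b and Tmem108, the most abundant leading genes, had ratios of 0.957 (0.891 to 1.03) and 0.992 (0.912 to 1.08). With Eomes the leading genes as a group lay nearer to equality, with Samd3, Gmnc and Rspo2 among the lower exceptions.

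The same ranking was made within nuclei with Eomes, and some of its 12 highest and 12 lowest genes follow. Grin2a, the GluN2A subunit of NMDA receptors, had 13 UMIs in 11 of 131 control nuclei and 66 UMIs in 25 of 139 nuclei, 5.46-fold higher (2.99 to 10.8). Alk, a receptor tyrosine kinase, had 18 and 72 UMIs in 9 and 17 nuclei, 4.30-fold higher (2.54 to 7.67), and Sst, the neuropeptide somatostatin, had 10 and 42 UMIs in 10 and 15 nuclei, 4.52-fold higher (2.23 to 10.1), but 27 of the 42 were in 1 nucleus, and without the top nucleus of each library its ratio was 1.82 (0.747 to 4.72). Snhg11 had 108 and 302 UMIs, 3.01-fold (2.41 to 3.78), and the adhesion genes Cntn4 and Pcdh17 were 2.47-fold (1.76 to 3.5) and 2.48-fold (1.69 to 3.72) higher. Each was held by a minority of nuclei. Ratios in other passing nuclei were 1.11 for Grin2a, 1.38 for Alk, 2.06 for Sst, 1.60 for Snhg11, 1.35 for Cntn4 and 1.14 for Pcdh17. At the lower end, behind Top2a and Rpl35, stood Adarb2, with 284 and 133 UMIs in 43 and 38 nuclei, a ratio of 0.504 (0.407 to 0.622), and Cacng2, an AMPA receptor auxiliary subunit, with 99 and 46 UMIs, a ratio of 0.50 (0.344 to 0.717).

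Receptor families leaned to higher ratios over all members. Of 15 ionotropic glutamate receptor genes compared, 13 were above 1 and 4 past 2-fold, with a median log2 ratio of 0.37, against -0.02 over all genes. Grin2a was 3.37-fold higher (2.47 to 4.66) and Grin3a 3.15-fold (2.10 to 4.87), 2.31-fold (1.19 to 4.71) with Eomes, whereas Gria2, the AMPA receptor subunit that limits calcium entry, was at 1.02 (0.961 to 1.08). With Eomes 6 of 12 were above 1 and the median was 0.00. Of 13 GABA-A, GABA-B and glycine receptor genes 11 were above 1, with a median of 0.53 and 0.21 with Eomes. Gabrg3 had 82 and 240 UMIs, 2.31-fold higher (1.79 to 3.00), and 2.89-fold (1.74 to 4.95) with Eomes. The 6 metabotropic glutamate receptor genes compared had medians of 0.40 and 0.37 with Eomes, and Grm3, at 61 and 196 UMIs, was 2.53-fold higher (1.89 to 3.43) and 2.48-fold with Eomes. In other passing nuclei the medians of the 3 families were 0.18, 0.26 and 0.29.

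Adhesion and channel genes were counted in the same way. Of 20 cadherin genes 16 were above 1, with a median log2 ratio of 0.24 and 0.04 with Eomes, and Pcdh10 was 2.83-fold higher (1.95 to 4.20), 2.47-fold (1.13 to 5.83) with Eomes. Of 29 synaptic adhesion genes 20 were above 1, with medians of 0.16 and 0.00. Cntnap5b and Cntnap5a, neurexin-like adhesion proteins, were 2.95-fold (2.25 to 3.90) and 2.29-fold (1.95 to 2.70) higher, with 1.49 (0.875 to 2.57) and 1.93 (1.51 to 2.48) in nuclei with Eomes, and Epha10 was 2.06-fold (1.41 to 3.06). Of 23 potassium channel genes 15 were above 1, with medians of 0.17 and -0.05 with Eomes, and of 23 sodium and calcium channel genes 14 were above 1, with medians of 0.08 and 0.04. Of the channels past 2-fold, Kcnc2, a fast potassium channel, was 2.59-fold (1.85 to 3.68) and Scn1a, a sodium channel, 2.17-fold (1.65 to 2.88) higher, at 1.30 (0.731 to 2.33) and 1.73 (1.10 to 2.76) with Eomes. The guidance gene Flrt2 was 2.21-fold higher (1.54 to 3.24) but 1.28-fold (0.737 to 2.25) with Eomes. In other passing nuclei the medians were 0.13 for cadherins, 0.14 for synaptic adhesion, 0.02 for potassium channels and 0.16 for sodium and calcium channels.

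Genes of the rhombic lip and of young glutamatergic neurons were mostly below 1. Atoh1, the factor of granule progenitors, and Olig3 had 0 UMIs in members of both libraries, Wls had 4 and 11, and Neurod4 and Nhlh1 had at most 5. Of 10 genes compared 8 were below 1, with medians of -0.28 and, with Eomes, -0.18. In other passing nuclei 12 of 15 genes of this list were below 1, with a median of -0.41. Pax6, a transcription factor kept by granule and unipolar brush cells, had 241 and 206 UMIs, 1.48-fold lower (1.23 to 1.80), Reln, the secreted guide of migration, 755 and 801 UMIs, 1.20-fold lower (1.08 to 1.32), and Dcx, a microtubule protein of migrating neurons, 382 and 369 UMIs, 1.31-fold lower (1.14 to 1.52). With Eomes their ratios were 0.758 (0.601 to 0.953), 0.807 (0.709 to 0.918) and 0.820 (0.683 to 0.983). Neurod1, Neurod2, Neurod6, Sox4, Sox11 and Barhl1 had intervals that included 1. Markers of the glutamatergic cerebellar nuclei were sparse apart from Meis2 and Slc17a6: Tbr1 had 2 and 10 UMIs, Lhx9 3 and 6, Lhx2 1 and 0, and Irx3 1 and 5. Lmo3 had 11 UMIs in 7 control nuclei and 37 in 24, and Meis2 had 145 in 18 and 228 in 29 nuclei, so Meis2 sat in few nuclei at high level.

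Of 13 granule lineage genes compared, all were below 1 over all members, with a median log2 ratio of -0.36, and 9 of 12 were with Eomes, with a median of -0.17. In other passing nuclei, where granule nuclei were fewer in the library labelled cKO, the median was -0.40. Zic1, a transcription factor of the granule lineage, had 502 and 516 UMIs and a ratio of 0.810, and Etv1 had 48 and 28, 2.18-fold lower (1.34 to 3.60) but 0.897 with Eomes. Of the 6 granule progenitor genes that the study picked from these libraries, and which are no independent evidence of direction, Btbd11 was 1.60-fold lower (1.27 to 2.03) and Ntn1 had 20 and 5 UMIs. Sema7a, Rnf220 and Col18a1 had 9 to 23 UMIs per library.

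Ribosomal and mitochondrial transcripts were lower in the library labelled cKO in members and elsewhere alike. Of 82 ribosomal protein genes 78 were below 1 with a median log2 ratio of -0.42, against -0.40 in other nuclei, and Rps19 was 2.0-fold lower (1.49 to 2.69). Of 12 mitochondrial transcripts 11 were below 1, with medians of -0.73 and -0.57. With Eomes the medians were -0.27 and -0.40. Zic and nuclear factor I genes had a median of -0.34 against -0.38 in other nuclei, and Wnt pathway genes -0.22 against 0.00, with Rspo2 the lowest after Ror2, a Wnt receptor, at 0.633 (0.454 to 0.878). For these lists the medians were -0.06 and -0.09 with Eomes, and -0.94 and -0.36 without Eomes.

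**Figure D5:**
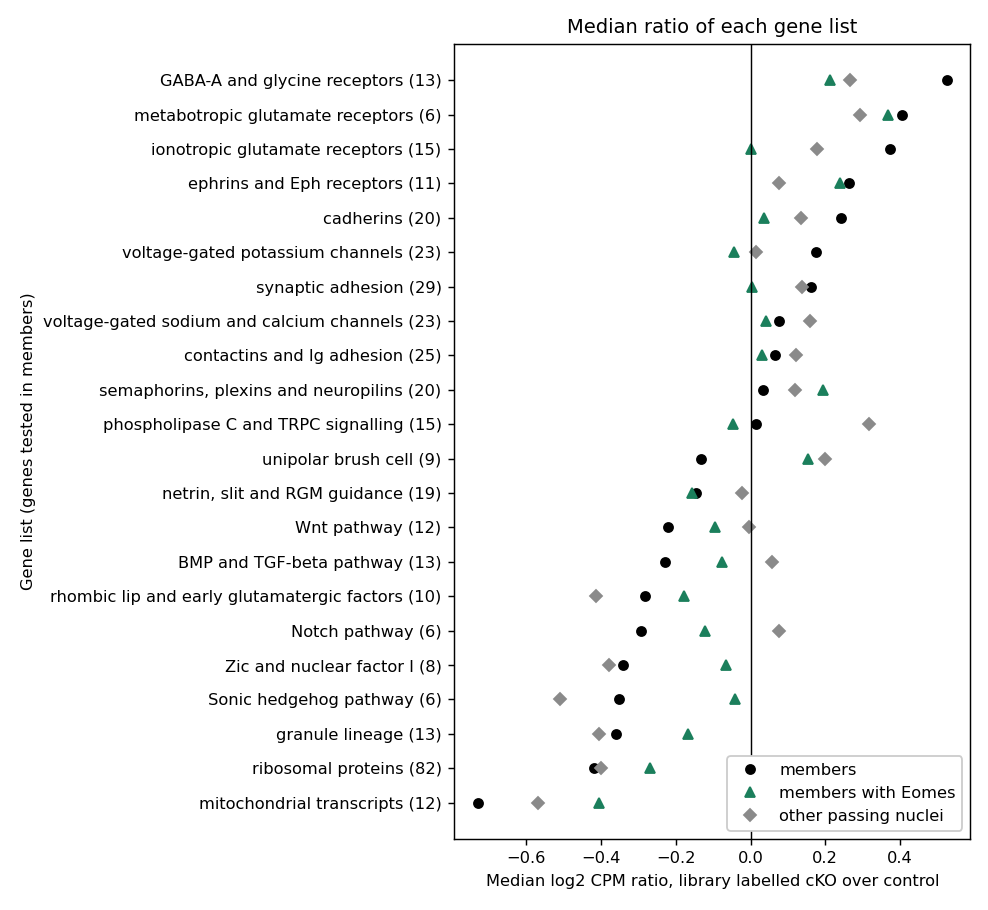
Median log2 ratio of CPM, library labelled cKO over control, for each gene list with at least 5 genes compared in members (number in brackets): all members (black circles), members with Eomes (green triangles) and other passing nuclei (grey diamonds). Mitochondrial transcripts stood lowest in members at -0.73 and the GABA-A and glycine receptor list highest at 0.53, and most triangles lay nearer to 0 than the circles.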

How the data were processed

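Nuclei came from snap-frozen cerebella and were captured with the Chromium 3′ v3.1 kit of 10x Genomics. Per the submitters' processing notes and the study's methods, the authors made the counts with Cell Ranger 7.0.1 on mm10 (GRCm38). The deposited values are raw UMI counts per gene and nucleus in whole numbers, for 32285 genes. Whether intronic reads were counted is not given in the sources used here. The study's own filters, doublet calls and correction for free RNA were not applied. Members were chosen by symbol with the rule given above. UMIs were summed over members per library and scaled to CPM. Depth was 1857 to 16097 UMIs per member in the control library and 1616 to 17087 in the library labelled cKO, so low genes rest on few counts.

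Shares have exact Clopper-Pearson intervals, levels exact Poisson intervals, and ratios exact conditional binomial intervals, all at 95% and for counting error only. UMIs are not independent of the nucleus that holds them. A gene needed 50 UMIs over both libraries, and called means a ratio of at least 2 or at most 0.5. A gene at 0 was set against 3 counts. The rule for named genes took the 12 highest and 12 lowest by the interval bound nearest to 1, the 20 leading genes, all members of 5 lists, and from each other list up to 2 genes past 2-fold each way. The same ranking was made for nuclei with and without Eomes, and genes given only as members of a counted list were named after their values were seen. Some of these genes are not reported here, though counts and medians over lists include them. Members and lists were chosen with earlier results of these data known.

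Doublets were kept, and removing the top Scrublet scores per library (0.8% per 1000 barcodes) was an alternative. Comparison nuclei were chosen by UMIs: granule lineage by Barhl1, Neurod1 and Pax6, GABAergic by Gad1 and Gad2. A first microglia rule took up 586 and 999 nuclei, and a rule with Csf1r, C1qa and C1qb replaced it after the data were seen. Coordinates are from GENCODE vM21 on GRCm38, the build of the files. The interval code was tested on simulated data. Tools were Python 3.11.15, numpy 2.4.6, scipy 1.17.1, pandas 2.3.3, scanpy 1.11.5 and matplotlib 3.10.9.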

Additional observations from a re-analysis of the deposited data

How the results depend on the processing

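No paired analysis was possible because each group had 1 library and the labels carry no replicate numbers. The ratio of the members' shares, 0.80, was 0.639 with a UMI of each of Eomes and Lmx1a required and 0.642 with granule nuclei left out of the denominator. It was below 1 under all 12 alternatives, but its interval included 1 under 6 of them, at ratios of 0.734 to 0.871: a marker sum of 3 or more, no ceilings, the rule after thinning, at least 500 genes, and nuclei with Xist or with Y-linked UMIs alone. The counts of genes past 2-fold, 147 higher and 41 lower, became 31 and 23 with both marker genes required, 43 and 26 with Eomes required, 47 and 17 after thinning members to 2000 UMIs, 417 and 219 with a minimum of 20 UMIs, 60 and 9 with a minimum of 100 UMIs and 3769 and 2946 with none. In nuclei with Y-linked UMIs 48 genes were higher. These settings also changed how many genes were compared, so the counts alone show no gain or loss of differences. With Eomes required, 4790 genes were compared instead of 6713, and 0.898% were higher and 0.543% lower, against 2.19% and 0.611%. The Tox3 ratio turned from 1.55 to 0.810 in nuclei with Y-linked UMIs. Among 42 named genes under 10 alternatives each, Tac1 left out, 351 of 420 values stayed within the interval of the value reported, 66 moved and 3 reversed: Gm20713 to 0 with both marker genes and to 0.646 with Eomes, and Ndst4 to 1.44 in nuclei with Y-linked UMIs. Of 261 list medians 251 stayed within 0.5 (log2), 10 moved and none reversed. Leaving out, per gene, the nucleus with most of its UMIs, in all members and in those with Eomes, was added after the data were seen.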
